A study of Mus musculus with 47 samples.

Results

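The 8 genes described here encode intermediate filament proteins of brain cells and were taken by symbol from the 14221 genes of the hypothalamic count table. Of these, 4 are filament genes of glia (Gfap, Vim, Nes and Synm) and 4 are filament genes of neurons (Nefl, Nefm, Nefh and Ina). All 8 were present in the table, and none was lost to a filter on low values.

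Intermediate filaments are rope-like polymers that give cells mechanical strength, and each cell type assembles them from its own set of proteins. In astrocytes the main subunits are glial fibrillary acidic protein (Gfap) and vimentin (Vim), joined by the large proteins nestin (Nes) and synemin (Synm), which copolymerize with them. Tanycytes, the radial glia that line the third ventricle, also carry vimentin and nestin, and a rise of Gfap, Vim and Nes is the classical mark of reactive astrocytes. Axons are filled by neurofilaments made of light (Nefl), medium (Nefm) and heavy (Nefh) chains together with alpha-internexin (Ina).

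Bulk mRNA was sequenced from the hypothalamus of 47 male ob/ob mice, which lack leptin and are obese, aged 11 weeks by the labels. Each mouse received 1 intracerebroventricular (icv) injection of 3 µg of fibroblast growth factor 1 (FGF1) or of vehicle and was killed 1, 5 or 42 days later, with separate mice on each day. The FGF1 groups held 10 mice on Day 1, 9 on Day 5 and 5 on Day 42, and the vehicle groups 4, 14 and 5. All vehicle-treated mice were pair-fed to the FGF1-treated mice. The labels call the vehicle-treated mice of Days 1 and 42 non-diabetic and split those of Day 5 into 7 non-diabetic and 7 diabetic mice. The study's methods state that ob/ob mice without diabetes were left out, so what these names mean is not settled by the sources used here, and they serve below only as labels. Both Day 5 comparisons share the same 9 FGF1-treated mice. The tissue was a hypothalamic punch from a coronal block, and FGF1 was the human recombinant protein.

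Total counts per library ran from 1243280 to 47082403 on Day 1, from 7579695 to 30009258 on Day 5 and from 19416026 to 43934003 on Day 42. Each day had its own preparation code in the labels, so levels of different days carry both, and day and preparation cannot be told apart. The shallowest library, FGF1 replicate 1 of Day 1, had 539 genes at 0, the other libraries of Days 1 and 42 had 78 to 136 and those of Day 5 had 0 to 2. All 12 markers of hypothalamic neurons were detected in every library, with a summed level of 398 to 1586 CPM, where CPM is a count per 1e6 counts of the library after TMM scaling. The 5 thalamic markers were detected in every library as well, and their summed level ran from 393 to 1456 CPM on Day 42 against 308 to 441 CPM on Day 1.

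The promoters of the glial genes are shown first, for description only. RefSeq (GRCm38.p6) gave the 250 bases before the start of 5 of the 8 genes, Gfap, Vim, Nes, Synm and Ina, and no promoter is shown for Nefl, Nefm and Nefh. For Gfap, Vim, Nes and Ina the RefSeq start is not the outermost GENCODE start given with the gene below, and for Synm it is the same base. Searched on both strands were the letters TATAAA of the TATA box, then CCAAT, the letters to which the factor NF-Y is known to bind, then GGGCGG for the factor Sp1, then TGANTCA for the AP-1 factors and TTCNNNGAA for the STAT factors. The sequences run 5′ to 3′ on the strand of the gene, at chr11:102897201-102897450 (minus strand) for Gfap, chr2:13574061-13574310 (plus) for Vim, chr3:87970843-87971092 (plus) for Nes and chr7:67759743-67759992 (minus) for Synm, with motif matches in capitals:
Gfap: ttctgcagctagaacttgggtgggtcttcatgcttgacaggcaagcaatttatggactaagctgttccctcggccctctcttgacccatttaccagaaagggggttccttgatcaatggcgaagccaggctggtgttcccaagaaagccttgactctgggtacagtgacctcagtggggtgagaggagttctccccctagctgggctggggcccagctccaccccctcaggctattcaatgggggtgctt
Vim: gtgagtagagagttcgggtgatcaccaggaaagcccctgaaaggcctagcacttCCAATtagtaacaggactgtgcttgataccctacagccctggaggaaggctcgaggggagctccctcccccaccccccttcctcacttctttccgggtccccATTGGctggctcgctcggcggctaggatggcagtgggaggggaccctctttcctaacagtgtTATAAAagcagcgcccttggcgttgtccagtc
Nes: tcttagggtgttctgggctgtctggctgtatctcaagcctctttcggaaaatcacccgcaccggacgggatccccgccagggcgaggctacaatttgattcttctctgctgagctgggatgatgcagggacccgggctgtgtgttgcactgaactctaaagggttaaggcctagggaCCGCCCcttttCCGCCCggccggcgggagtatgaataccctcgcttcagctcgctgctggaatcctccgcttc
Synm: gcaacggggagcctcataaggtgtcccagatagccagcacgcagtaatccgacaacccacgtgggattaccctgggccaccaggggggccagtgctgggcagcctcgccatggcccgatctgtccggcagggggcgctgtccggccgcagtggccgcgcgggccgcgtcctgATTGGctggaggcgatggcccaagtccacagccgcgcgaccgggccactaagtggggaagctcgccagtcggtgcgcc

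No motif was common to the 3 genes that rose on Day 1 (Nes, Vim and Gfap), which follows from Gfap having no match at all. Whether these genes share control was not tested. Counted to the first base of the match, Vim had the TATA letters 32 bases before its start and the CCAAT letters at 94 and 196 bases. Nes had GGGCGG on the opposite strand at 62 and 73 bases, and Gfap had no match to any of the 5 motifs in this window. Synm had the CCAAT letters once, at 78 bases. No AP-1 or STAT letters were found in any of the 4 windows. Of all 32851 promoters of the same length, 12.4% held the TATA letters, 33.8% the CCAAT letters, 32.7% the Sp1 letters, 6.75% the AP-1 letters and 7.02% the STAT letters.

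On Day 1, Nes, Vim and Gfap rose with FGF1 and the other 5 members did not pass the test. Nes rose 12.6-fold, Vim 9.89-fold and Gfap 7.00-fold. Thus 3 of 8 members passed, beside 19.5% of all genes in this comparison. Passing means edgeR's quasi-likelihood test gave an adjusted p-value under 0.05, together with a log2 fold change of over 0.5 in either direction. In this bulk tissue, more cells of a type and more RNA per cell cannot be told apart, and the same holds for fewer cells and less RNA per cell.

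Nes, on chromosome 3 (GRCm38, chr3:87971078-87980451, plus strand, 4 exons), is an embryonic filament protein that most mature cells lack. It stood at 14.8, 15.4, 16.3 and 10.6 CPM in the 4 vehicle-treated mice. In the 10 FGF1-treated mice the lowest value was 97.0, the median 176 and the highest 229 CPM. The groups did not overlap, as in 14.4% of all genes, and the lowest value was that of the shallowest library, where it rests on 119 raw counts. The log2 fold change was 3.65 (SE 0.152, adjusted p = 4.50e-24), and by size of change Nes ranked 19 of 14221 genes.

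Vim (chr2:13573927-13582826, plus strand, 9 exons) stood at 61.9, 70.3, 53.2 and 44.7 CPM with vehicle and at 427 (lowest), 570 (median) and 698 CPM (highest) with FGF1. Gfap (chr11:102887336-102900912, minus strand, 9 exons) stood at 265, 286, 227 and 244 CPM with vehicle and at 1437, 1782 and 2182 CPM with FGF1. For both genes all 10 FGF1-treated mice lay above all 4 vehicle-treated mice. The log2 fold changes were 3.31 for Vim (SE 0.180, adjusted p = 5.06e-20) and 2.81 for Gfap (SE 0.190, adjusted p = 1.08e-16). A two-sided exact permutation test on log2(CPM + 0.5) gave p = 0.000999 for each of the 3 genes, the smallest that 10 against 4 mice allow, and 0.00571 after adjustment over 40 tests of members and contrasts.

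Synm (chr7:67730160-67759742, minus strand, 4 exons), the fourth glial filament gene, stood at 31.0, 37.1, 33.2 and 31.9 CPM with vehicle and at 25.8, 30.3 and 41.8 CPM with FGF1. The ranges overlapped, with 6 FGF1-treated mice below all vehicle-treated mice and 1 above. Its log2 fold change was -0.10 (SE 0.0875, adjusted p = 0.339), so the interval of 2 SE, from -0.28 to 0.07, held no change near that of its partners. Exons of Ttc23 and Gm45102 overlap Synm on the other strand by 84 and 377 bases of its principal transcript.

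The neuronal members all missed the threshold on Day 1. Nefl (chr14:68083863-68089095, plus strand, 4 exons), the light chain, stood at 254, 314, 255 and 263 CPM with vehicle and at 192, 236 and 310 CPM with FGF1. Its log2 fold change was -0.21 (SE 0.111, adjusted p = 0.124), with 8 of 10 FGF1-treated mice below all vehicle-treated mice. Nefm (chr14:68082590-68124846, minus strand, 3 exons), the medium chain, stood at 92.9, 126, 128 and 126 CPM with vehicle and at 116, 127 and 152 CPM with FGF1. Nefm thus leaned the other way, with a log2 fold change of 0.15 (SE 0.142, adjusted p = 0.418), and its low vehicle-treated mouse was replicate 1. This value ran from 0.05 to 0.19 when single vehicle-treated mice were left out. The span of Nefl lies inside that of Nefm and their exons overlap on opposite strands by 1108 bases, which is 32.8% of the principal Nefl transcript and none of that of Nefm. The library kit marks strand, but whether the counting used it is not given in the sources used here, so the split of reads between the pair is uncertain.

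Nefh (chr11:4938754-4948064, minus strand, 4 exons), the heavy chain, stood at 75.6, 73.4, 80.6 and 81.0 CPM with vehicle and at 66.1, 69.5 and 81.1 CPM with FGF1. Ina (chr19:47014698-47025327, plus strand, 3 exons) stood at 207, 205, 205 and 228 CPM with vehicle and at 194, 211 and 241 CPM with FGF1. Both ranges overlapped, and the log2 fold changes were -0.12 for Nefh (SE 0.186, adjusted p = 0.635) and 0.02 for Ina (SE 0.0928, adjusted p = 0.855). The direction for Ina turned to -0.02 with DESeq2. Exons of Nt5c2 overlap 14.1% of the principal Ina transcript on the other strand.

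**Figure D1:**
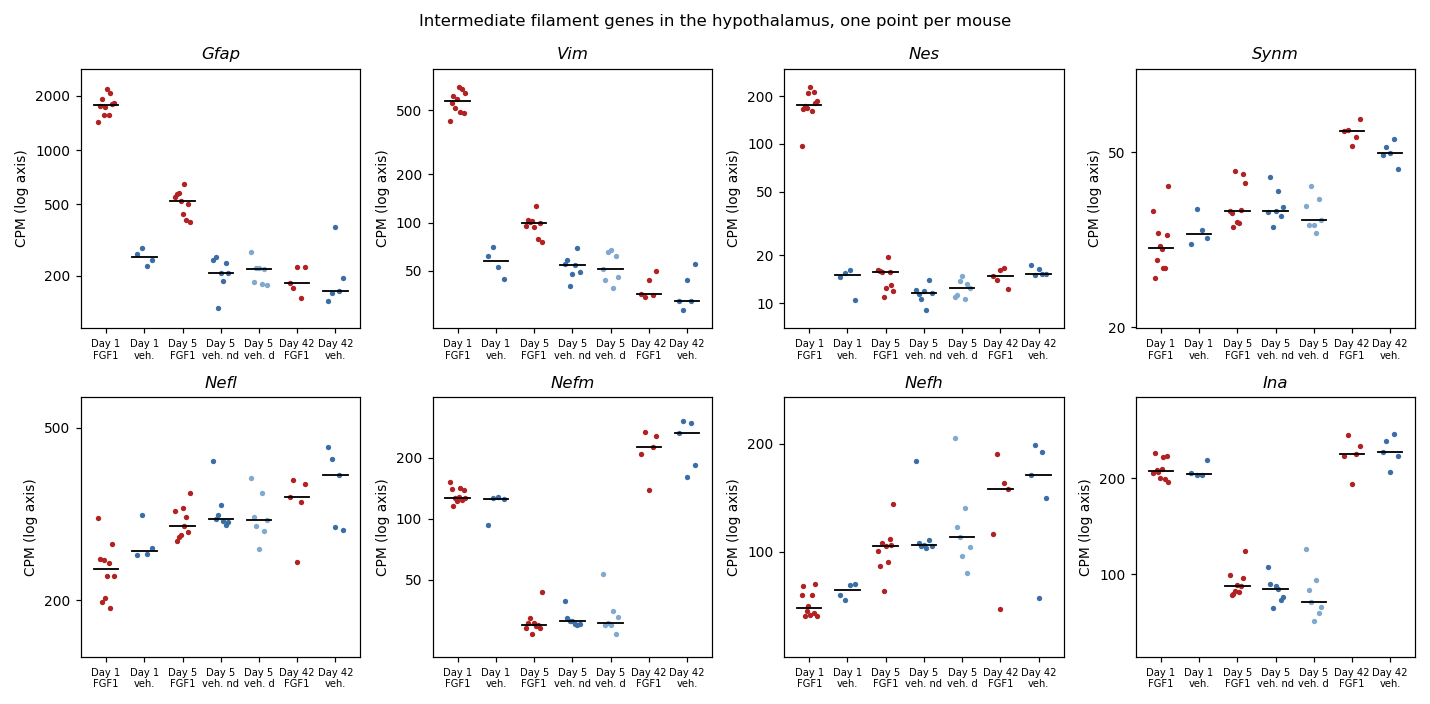
CPM (log axis) of the 8 genes in each mouse, with 1 panel per gene. Points are mice, lines are group medians, red is FGF1 and blue is vehicle, and nd (dark blue) and d (light blue) mark the Day 5 vehicle groups labelled non-diabetic and diabetic. Nes, Vim and Gfap on Day 1 and Vim and Gfap on Day 5 lie above all vehicle-treated mice of the day, and Nefm and Ina sit lower in all Day 5 groups than on the other days.

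On Day 5, Gfap and Vim were still higher with FGF1, Nes was no longer past the threshold, and the neuronal members again did not pass. Against either vehicle group 2 of 8 members passed, beside 1.54% of all genes against the mice labelled non-diabetic and 2.85% against those labelled diabetic. Gfap was 2.44-fold and 2.43-fold higher, and Vim 1.82-fold higher in both comparisons.

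Gfap ran from 400 through a median of 519 to 644 CPM in the 9 FGF1-treated mice, from 133 through 208 to 254 CPM in vehicle-treated mice labelled non-diabetic, and from 178 through 219 to 272 CPM in those labelled diabetic. All 9 FGF1-treated mice lay above all 14 vehicle-treated mice. The log2 fold changes were 1.29 (SE 0.143, adjusted p = 1.16e-08) and 1.28 (SE 0.142, adjusted p = 1.26e-08). Vim ran from 76.0 through 99.3 to 127 CPM with FGF1, from 40.1 through 54.5 to 69.1 CPM in the non-diabetic group and from 38.9 through 51.2 to 67.9 CPM in the diabetic group, again without overlap. Its log2 fold changes were 0.87 (SE 0.134, adjusted p = 1.28e-05) and 0.86 (SE 0.133, adjusted p = 8.11e-06). Groups did not overlap in 3.93% of all genes in the first comparison and in 6.08% in the second.

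Nes lay close to the vehicle range on Day 5. It ran from 10.9 through 15.7 to 19.6 CPM with FGF1, from 9.09 through 11.6 to 14.1 CPM in the non-diabetic group and from 10.6 through 12.6 to 14.8 CPM in the diabetic group. In each comparison 5 of 9 FGF1-treated mice lay above all vehicle-treated mice and the other 4 overlapped with them. The log2 fold changes were 0.33 (SE 0.126, adjusted p = 0.136) and 0.22 (SE 0.123, adjusted p = 0.297), with intervals of 2 SE from 0.08 to 0.58 and from -0.02 to 0.47. In an exact permutation test the first gave p = 0.0159 and 0.0707 after adjustment over 40 tests.

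Neither Synm nor the neuronal members passed between FGF1 and vehicle on Day 5. Their 10 log2 fold changes over both comparisons ran from -0.25, for Nefh against the diabetic group (SE 0.161, adjusted p = 0.386), to 0.11, for Ina against the same group (SE 0.0815, adjusted p = 0.473). Synm ran from 33.8 through 36.8 to 45.3 CPM with FGF1, from 33.8 through 36.8 to 43.9 CPM in the non-diabetic group and from 32.7 through 35.1 to 41.9 CPM in the diabetic group. Its log2 fold change against the diabetic group was 0.08 (SE 0.0777, adjusted p = 0.616), with 3 of 9 FGF1-treated mice above all mice of that group. Ina ran from 86.3 through 92.3 to 119 CPM with FGF1, from 78.8 through 89.8 to 106 CPM in the non-diabetic group and from 71.6 through 81.9 to 120 CPM in the diabetic group. The highest neuronal values of the Day 5 vehicle mice belonged to replicate 1 of each group, with Nefh at 179 and 207 CPM where the other 12 ran from 87.2 to 132 CPM.

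**Figure D2:**
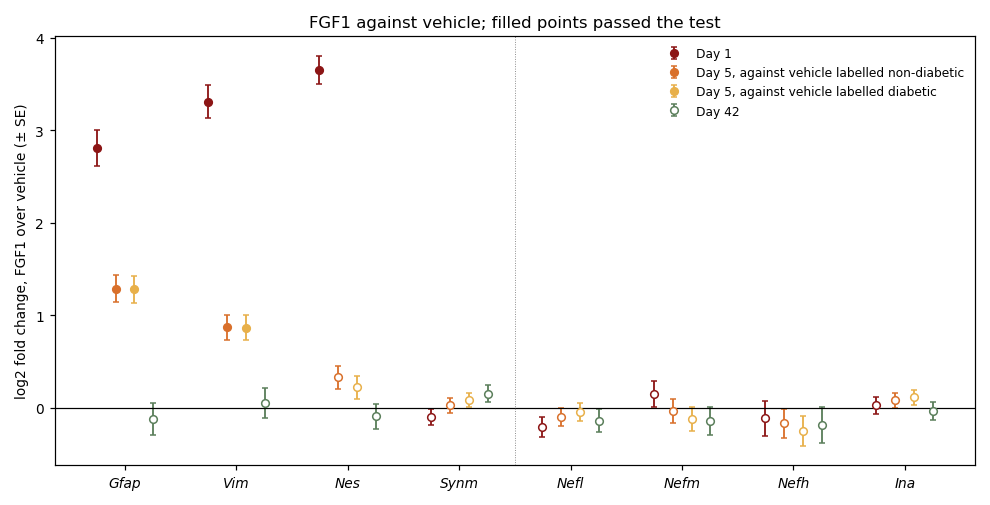
Log2 fold changes of FGF1 over vehicle (vertical axis, with SE bars) for the 8 genes on Days 1, 5 and 42, with both vehicle groups of Day 5. Filled points passed the test, and they are Gfap, Vim and Nes on Day 1 (2.81, 3.31 and 3.65) and Gfap and Vim on Day 5, while the neuronal genes stay between -0.25 and 0.15.

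Between the vehicle-treated mice of Day 5, labelled diabetic and non-diabetic, 0 of 8 members passed and 0% of all genes did. At an unadjusted p under 0.05 there were 193 genes with edgeR, none of them a member, and DESeq2 called 0 genes. The log2 differences (diabetic over non-diabetic) ran from -0.06 for Synm to 0.11 for Nes (SE 0.0829 and 0.135). These groups overlapped for every member, and 0.0984% of all genes had groups that did not overlap.

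On Day 42 no member passed, beside 0% of all genes. With edgeR 776 genes had an unadjusted p under 0.05, none of them a member, and DESeq2 called 0 genes. Gfap stood at 183, 171, 224, 151 and 223 CPM with FGF1 and at 146, 160, 376, 164 and 194 CPM with vehicle. A single vehicle-treated mouse, replicate 3, was higher than all others of the day. The log2 fold change of Gfap was -0.13 (SE 0.172, interval of 2 SE from -0.47 to 0.22), and 0.20 without that mouse. Vim stood at 36.1, 34.2, 44.1, 35.4 and 50.3 CPM with FGF1 and at 32.5, 28.6, 44.1, 32.5 and 55.4 CPM with vehicle, and Nes at 14.8, 14.0, 16.2, 16.7 and 12.4 against 17.4, 15.0, 16.5, 15.2 and 15.3 CPM. Both pairs of groups overlapped, with log2 fold changes of 0.05 (SE 0.161) for Vim and -0.09 (SE 0.136) for Nes. The value for Vim changed its sign when single mice of Day 42 were left out, with a range from -0.04 to 0.21.

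Synm was the member nearest to a difference on Day 42. It stood at 55.8, 56.2, 51.6, 54.2 and 59.6 CPM with FGF1 and at 49.2, 51.4, 49.9, 53.6 and 45.8 CPM with vehicle, so that 4 of 5 FGF1-treated mice lay above all vehicle-treated mice. On this day the groups overlapped for every member, and 0.267% of all genes had groups that did not overlap. Its log2 fold change was 0.15 (SE 0.0925, adjusted p = 1 with edgeR), and the exact permutation test gave p = 0.0159, or 0.0707 after adjustment. The neuronal members spread widely among mice of this day. Nefh stood at 112, 187, 69.3, 155 and 149 CPM with FGF1 and at 163, 198, 74.2, 189 and 141 CPM with vehicle, and the lowest mouse of each group was its replicate 3. The log2 fold changes of the 4 neuronal members ran from -0.19 (Nefh, SE 0.198) to -0.04 (Ina, SE 0.0988). With single mice of Day 42 left out they ran from -0.36 to -0.02 for Nefh and from -0.26 to -0.01 for Nefm. For Nefl they ran from -0.22 to -0.04 and for Ina from -0.09 to 0.03.

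The FGF1 effects were compared between days by the difference of the log2 fold changes, with the non-diabetic vehicle group for Day 5. From Day 1 to Day 5 the effect fell by 3.32 for Nes (SE 0.186, adjusted p = 2.03e-18) on the log2 scale. It fell by 2.44 for Vim (SE 0.207, adjusted p = 6.12e-13). For Gfap it fell by 1.52 (SE 0.218, adjusted p = 4.13e-07). Thus 3 of 8 members passed, beside 15.8% of all genes. From Day 5 to Day 42 it fell by a further 1.41 for Gfap (SE 0.223, adjusted p = 1.54e-04) and by 0.82 for Vim (SE 0.209, adjusted p = 0.0373), which is 2 of 8 members beside 0.717% of all genes. The call for Vim was lost when Day 42 FGF1 replicate 1, 2 or 4 or vehicle replicate 3 or 5 was left out, with differences of -0.78, -0.77, -0.78, -0.77 and -0.65. For Nes the second difference was -0.42 (SE 0.185, adjusted p = 0.393). Between Days 1 and 42 the same 3 glial genes passed, beside 16.4% of all genes, and the neuronal members and Synm passed in none of the 3 comparisons of days.

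The order of the responses turned between Days 1 and 5, as seen in the ratio of 2 members within the same library, in which scaling between libraries enters only through the pseudocount of 0.5. The log2 ratio of Vim to Gfap was -2.16 ± 0.189 (SD, n = 4) with vehicle and -1.66 ± 0.109 (n = 10) with FGF1 on Day 1, a difference of 0.50, and all 10 FGF1-treated mice lay above all vehicle-treated mice. On Day 5 it was -1.95 ± 0.194 (n = 7) in the non-diabetic group, -1.98 ± 0.256 (n = 7) in the diabetic group and -2.38 ± 0.0956 (n = 9) with FGF1, a difference of -0.43 and -0.40. Of the 9 FGF1-treated mice, 9 lay below all mice of the non-diabetic group and 3 below all mice of the diabetic group. Relative to Gfap, Vim was thus higher on Day 1 and on average lower on Day 5, with exact permutation p-values, adjusted over 28 tests of ratios, of 0.00280, 4.90e-04 and 0.00280.

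The ratio of Nes to Gfap moved further in the same directions. It differed by 0.78 on Day 1 (adjusted exact p = 0.00430, 9 of 10 FGF1-treated mice above all vehicle-treated mice) and by -0.98 and -1.06 on Day 5 (adjusted exact p = 4.90e-04 for each, 9 of 9 below). The ratio of Nes to Vim differed by -0.55 and -0.66 on Day 5 (adjusted exact p = 0.00245 and 8.16e-04). On Day 1 the same ratio differed by 0.29, which missed the threshold (exact p = 0.0380, adjusted 0.0709) and passed it, at 0.33, without the shallowest library or, at 0.38, without vehicle replicate 3. For the ratios of Vim and of Nes to Gfap, all 10 FGF1-treated mice of Day 1 lay above the mean of the vehicle mice and all 9 of Day 5 lay below it, and the difference between the days was not itself tested for any ratio. On Day 42 no ratio differed between the groups, the lowest adjusted exact p being 0.596.

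Among the neurofilament genes the ratios moved by small amounts. Relative to Nefl, Nefm was higher with FGF1 on Day 1 by 0.37 on the log2 scale (adjusted exact p = 0.00430, 9 of 10 mice above all vehicle-treated mice), and this difference ran from 0.29 to 0.44 when single vehicle-treated mice were left out. On Day 5 it was 0.05 and -0.06, and the exon overlap of the pair named above bears on this ratio. Ina relative to Nefl was higher with FGF1 on Day 5 by 0.17 against each vehicle group (adjusted exact p = 0.00430 and 0.00699, with 6 and 3 of 9 mice above all vehicle-treated mice) and by 0.23 on Day 1 (adjusted exact p = 0.107). None of these members passed on its own, so the ratios show unequal change within a library and not which gene of a pair changed. Nefh relative to Nefl passed on no day.

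**Figure D3:**
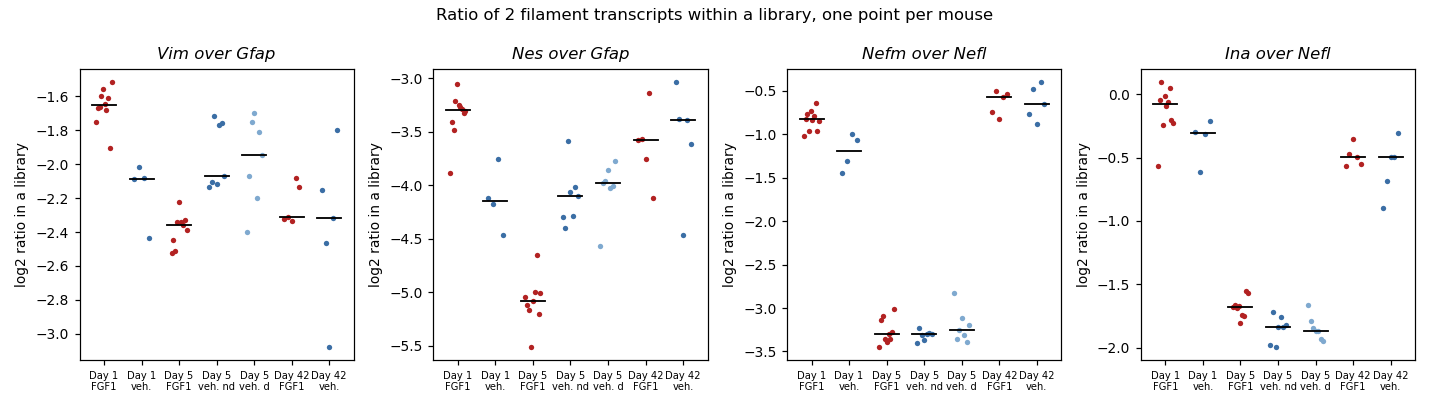
Log2 ratio of 2 members in the same library (vertical axis), 1 point per mouse with group medians as lines. FGF1-treated mice (red) have a higher median ratio of Vim or Nes to Gfap than the vehicle mice on Day 1 and a lower one on Day 5, and the ratio of Nefm to Nefl lies between -3.45 and -2.82 in all Day 5 groups and between -1.45 and -0.39 on the other days.

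Levels of different genes were compared per kilobase of the principal transcript. In vehicle-treated mice of Day 1 the order was Gfap, Nefl, Ina, Nefm, Vim, Nefh, Synm and Nes, from 96.5 ± 9.70 to 2.33 ± 0.416 CPM per kb (SD, n = 4). Gfap and Nefl (80.4 ± 8.38) overlapped in range, as did Nefm (35.4 ± 5.05) and Vim (26.2 ± 5.03), and the other neighbours in this order did not. With FGF1 on Day 1 Gfap stood at 675 ± 87.4 CPM per kb and Vim, now second, at 259 ± 41.1 (n = 10), both above every other member in every mouse. Nes rose from the lowest place to the sixth, at 29.0 ± 5.89, and Synm took the lowest place at 4.00 ± 0.627.

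As a share of the summed level per kb of the 4 glial genes, Gfap made up 74.7% ± 2.15 with vehicle and 69.9% ± 1.54 with FGF1 on Day 1, and Vim 20.2% ± 2.01 and 26.7% ± 1.41. Nes made up 1.81% ± 0.344 and 2.99% ± 0.387, and Synm 3.31% ± 0.298 and 0.423% ± 0.0980. On Day 5 the share of Gfap was 78.8% ± 1.15 with FGF1 (n = 9) against 71.5% ± 2.74 and 71.9% ± 3.11 in the vehicle groups (n = 7 each), and that of Vim was 18.2% ± 0.958 against 22.2% ± 2.18 and 22.0% ± 2.92. The glial filament transcripts thus held relatively more Vim and Nes on Day 1 and more Gfap on Day 5. In the last place on Day 5 was Nes, at 0.980% ± 0.156 with FGF1.

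Among vehicle-treated mice Nefm and Ina had lower medians on Day 5 than on the other days, and levels were not tested between days. Here day, preparation and any difference in how the libraries of a day were counted cannot be told apart. Nefm had a median of 126 CPM on Day 1, 31.0 on Day 5 and 265 on Day 42, and Ina of 206, 87.2 and 242 CPM. On Day 5 Nefm ran from 27.1 to 53.7 CPM and Ina from 71.6 to 120 CPM. How all genes differed between the vehicle-treated mice of different days was not computed, so whether Nefm and Ina are unusual is not known. Nefl, in contrast, had 259, 307 and 389 CPM and Nefh 78.1, 105 and 163 CPM, without a dip on Day 5. Nefm made up 17.6% ± 1.88 of the summed neuronal level per kb in vehicle-treated mice of Day 1 and 5.96% ± 0.226 in non-diabetic ones of Day 5. Synm stood at 32.6, 36.6 and 49.9 CPM.

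Within groups, the neuronal members rose and fell together from mouse to mouse, as did Gfap and Vim. Deviations from the group means of log2(CPM + 0.5) were correlated over all 47 mice for the 28 pairs of members, of which 16 passed for r after adjustment. Gfap and Vim had r = 0.69 and rho = 0.79 (permutation p = 1e-05 for each, the smallest that 100000 permutations give, adjusted 4e-05 and 6e-05), and r = 0.73 without the 2 mice farthest from the median. Within days r was 0.85, 0.74 and 0.61 on Days 1, 5 and 42. Vim and Nes had r = 0.50 and rho = 0.52 (permutation p = 2e-04 and 4.8e-04, adjusted 7e-04 and 0.00149), with r = 0.51 without the 2 farthest mice and 0.78, 0.57 and -0.22 within days, so the relation did not hold on Day 42. Gfap and Nes had r = 0.35 and rho = 0.40 (permutation p = 0.00432 and 0.00659, adjusted 0.0118 and 0.0132), with r = 0.40 without the 2 farthest mice and 0.68, 0.46 and -0.07 within days, and this relation too was not seen on Day 42.

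The 6 pairs of neuronal members were all correlated, with r from 0.70 (Nefl and Ina) to 0.89 (Nefm and Nefh). Their permutation p-values adjusted over 28 pairs were 4e-05 for r in each pair and 6e-05 to 2.4e-04 for rho, where rho ran from 0.65 to 0.79. Without the 2 farthest mice r ran from 0.71 to 0.84. Within days r ran from 0.35 to 0.77 on Day 1, from 0.77 to 0.91 on Day 5 and from 0.81 to 0.94 on Day 42. Synm was correlated with no other member past the threshold, its lowest adjusted p for r being 0.117 (with Nes). Within Day 42 alone its r was -0.60 with Nes and from 0.48 to 0.72 with the neuronal members, against -0.51 to 0.44 with the latter on Day 1 and -0.09 to 0.22 on Day 5.

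Vim was negatively correlated with all 4 neuronal members, most with Nefl (r = -0.54, rho = -0.59, permutation p = 6.8e-04 and 1.7e-04, adjusted 0.00212 and 5.9e-04). This held without the 2 farthest mice (r = -0.51) and within days (-0.50, -0.46 and -0.69). For Nefm, Nefh and Ina the r with Vim ran from -0.40 to -0.47 (rho from -0.49 to -0.53), with adjusted permutation p-values for r from 0.0133 to 0.0363 and for rho from 0.00185 to 0.00403. Without the 2 farthest mice these r ran from -0.41 to -0.43, and within days from -0.52 to -0.74, from -0.30 to -0.38 and from -0.48 to -0.64. Nes was negatively correlated with Nefl, Nefm and Ina, with r = -0.40, -0.30 and -0.36 and rho = -0.39, -0.32 and -0.49 (adjusted permutation p = 0.0118, 0.0205 and 0.0155 for r and 0.0133, 0.0480 and 0.00239 for rho). Without the 2 farthest mice these r were -0.31, -0.27 and -0.45, and within days they ran from -0.29 to -0.62, from -0.27 to -0.42 and from -0.30 to -0.57. Without the shallowest library the relations of Nes to Nefl and Nefm no longer passed for r (r = -0.27 for both, adjusted permutation p = 0.0910 for both), and that to Ina did (r = -0.46, adjusted p = 0.00353). Gfap had r from -0.16 to -0.37 with the neuronal members, none past the threshold (lowest adjusted permutation p = 0.0515, with Nefl). Its rho with Nefl was -0.40 (adjusted permutation p = 0.019, and 0.0553 without the shallowest library). Within Day 42 these r of Gfap ran from -0.62 to -0.79, and within Day 5 from -0.03 to 0.14. Vim was also negatively correlated with the summed thalamic markers described next (r = -0.43, rho = -0.51, permutation p = 0.00801 and 0.0013, adjusted over 32 pairs 0.0197 and 0.00568, r = -0.42 without the 2 farthest mice and -0.49, -0.48 and -0.45 within days), and Gfap had r = -0.43 and rho = -0.33 with them (permutation p = 0.0214 and 0.0361, adjusted 0.0427 and 0.0551, r = -0.23 without the 2 farthest mice and -0.16, -0.06 and -0.72 within days), so that the value for Gfap rests on Day 42. The part of tissue content in the relation of Vim to the neuronal members was not tested.

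**Figure D4:**
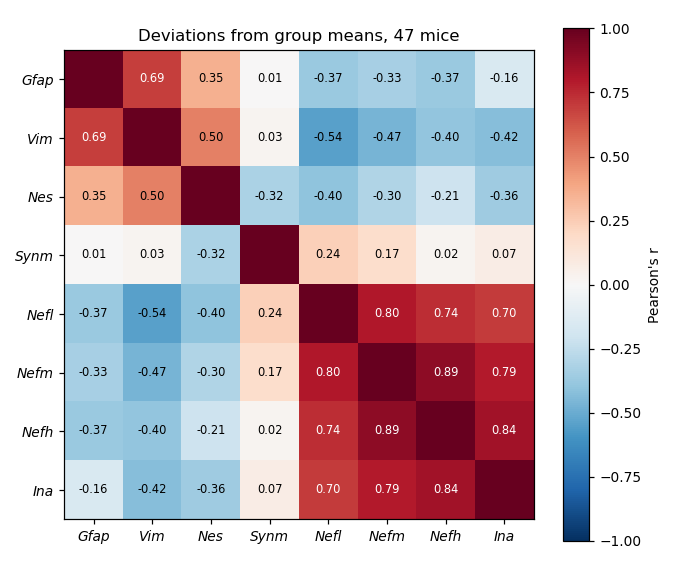
Pearson's r between the 8 genes over 47 mice, on deviations from group means of log2(CPM + 0.5), with red for positive and blue for negative values. The 4 neuronal genes form a block with r from 0.70 to 0.89, Gfap and Vim have 0.69, and Vim is negative with each neuronal gene.

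From mouse to mouse, the neuronal members were positively correlated with the summed thalamic markers, and the part of tissue content in this relation was not tested. The summed level of 5 thalamic markers (Tcf7l2, Prkcd, Rora, Lef1 and Calb2) was set against each member as deviations from the group means, among 32 pairs of 4 marker lists with 8 members that were chosen after the pattern was seen. Nefh had r = 0.85 and rho = 0.77 with the thalamic sum (permutation p = 1e-05 for each, adjusted 1.6e-04), r = 0.77 without the 2 farthest mice, and 0.69, 0.82 and 0.90 within Days 1, 5 and 42. Ina had r = 0.76 and rho = 0.76 (the same p-values), 0.73 without the 2 farthest mice and 0.67, 0.85 and 0.87 within days. Nefm and Nefl had r = 0.71 and 0.56 with rho = 0.54 and 0.53 (permutation p = 3e-05 and 3.2e-04 for r and 3e-04 and 4.1e-04 for rho, adjusted 3.2e-04, 0.00237, 0.0024 and 0.00262), 0.58 and 0.43 without the 2 farthest mice, and 0.19 and 0.20 on Day 1 alone, so for these genes the relation was seen on Days 5 and 42 (0.73 and 0.75, then 0.79 and 0.62).

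With the 12 markers of hypothalamic neurons the neuronal members were negatively correlated, with r from -0.45 (Nefl) to -0.57 (Nefm) and rho from -0.46 to -0.55 (adjusted permutation p from 0.00237 to 0.0152 for r and from 0.00149 to 0.00729 for rho). Without the 2 farthest mice r ran from -0.43 to -0.57. Within days r ran from -0.05 to 0.18 on Day 1, from -0.51 to -0.64 on Day 5 and from -0.66 to -0.71 on Day 42. The mice with the lowest Nefh, Nefm and Ina on Day 42, replicates 3 of both groups, had the lowest thalamic sums of the day (393 and 465 CPM) and the highest sums of hypothalamic neuron markers (1303 and 1346 CPM). The same vehicle-treated replicate 3 had the highest Gfap of the Day 42 mice. The 4 forebrain markers had r from 0.33 to 0.45 with the neuronal members (adjusted permutation p from 0.0917 to 0.142) and rho from 0.34 to 0.49 (adjusted p from 0.00922 to 0.0551, under 0.05 for Nefh and Nefl). Without the 2 farthest mice r ran from 0.51 to 0.65, and within days from -0.16 to 0.68, from 0.72 to 0.83 and from 0.26 to 0.44. Day 42 FGF1 replicate 5 stood far apart in this list, with a sum of 999 CPM where the other mice of all days had 26.5 to 214 CPM. The mature oligodendrocyte list had r from 0.41 to 0.46 with the neuronal members (adjusted permutation p from 0.00709 to 0.0269, rho from 0.31 to 0.40 with adjusted p from 0.0240 to 0.0512, 0.35 to 0.44 without the 2 farthest mice, and from -0.49 to 0.09, 0.71 to 0.76 and 0.63 to 0.86 within days).

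**Figure D5:**
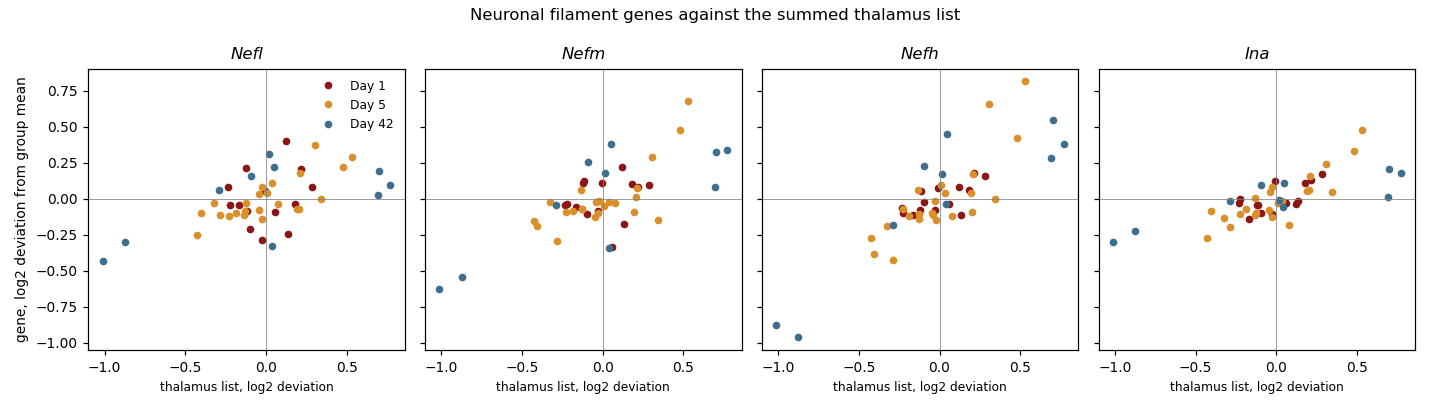
Each neuronal filament gene (vertical axis) against the summed thalamus list (horizontal axis), both as log2 deviations from group means, with 1 point per mouse coloured by day. Nefh and Ina rise along with the list on every day (r = 0.85 and 0.76 over 47 mice), and the 2 mice at the left edge are replicates 3 of the Day 42 groups.

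The markers of astrocytes, which carry these filaments, were lower in sum with FGF1 on Day 1 and higher on Day 5. The counts of markers that follow stand beside 11.5% of all genes that rose and 8.05% that fell on Day 1, and on Day 5 beside 1.31% and 2.36% of all genes that rose against the non-diabetic and the diabetic group. Of 12 astrocyte markers, 1 rose and 5 fell on Day 1, and their summed level was 4248 to 5301 CPM with FGF1 against 6500 to 7519 CPM with vehicle, lower in every FGF1-treated mouse. On Day 5, 1 of 12 rose against each vehicle group, with sums of 6870 to 7565 CPM against 5936 to 6355 and 5867 to 6477 CPM, higher in every FGF1-treated mouse. That marker was Aqp4, the water channel of astrocytes, with log2 fold changes of 0.98 and 1.01 (SE 0.138 for both, adjusted p = 2.34e-06 and 1.04e-06), and it was named after its values were seen. Of 8 tanycyte markers measured, 1 rose and 2 fell on Day 1 (78.2 to 141 against 123 to 179 CPM), and of 7 ependymal markers 3 fell (48.6 to 83.9 against 81.4 to 114 CPM). None of these markers was at 0 in any library, and Rax, a tanycyte factor, was not in the table. The part of cell numbers in the glial results was not tested.

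Vessels, fibroblasts and microglia also express Vim, and Nes is found in vessels. On Day 1, 2 of 8 endothelial markers rose (219 to 279 against 188 to 268 CPM), 2 of 7 mural markers rose and 1 fell (115 to 189 against 136 to 206 CPM), 3 of 6 fibroblast markers rose and 1 fell (59.5 to 431 against 94.7 to 174 CPM), and 4 of 6 microglial markers rose and 1 fell (205 to 271 against 190 to 224 CPM). The medians of the fibroblast sums on Day 1 were 216 CPM with FGF1 and 116 CPM with vehicle. On Day 5, 2 of 6 fibroblast markers rose against the non-diabetic group and 0 against the diabetic group. Of 6 microglial markers, 0 rose against the former and 5 against the latter, and no endothelial or mural marker passed. These Day 5 counts stand beside 1.31% and 2.36% of all genes that rose. The part of these cells in the results was not tested. On Day 1, of 6 markers of mature oligodendrocytes 5 fell and of 5 of their precursors 2 fell. Of 12 pan-neuronal markers none passed on Day 1, 4 had a log2 fold change above 0 and the median was -0.08 beside 0.01 for all genes. The summed pan-neuronal level was 6335 to 7343 CPM with FGF1 against 7388 to 8293 CPM with vehicle, lower in each FGF1-treated mouse. Of the tissue markers, 1 of 12 for hypothalamic neurons rose and 2 fell on Day 1, and none of 5 thalamic or 4 measured forebrain markers passed on any day.

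Among other intermediate filament genes the changes on Day 1 went both ways. Of 28 listed, 16 were in the table, of which 3 rose and 2 fell (median log2 fold change 0.06, 0.01 for all genes), beside 11.5% of all genes that rose and 8.05% that fell on Day 1. Lmna, which encodes the A-type lamins under the nuclear envelope, rose by 1.25 (SE 0.184, adjusted p = 2.89e-07) and the B-type lamin gene Lmnb2 by 0.63 (SE 0.159, adjusted p = 0.00114). Iffo2, a gene of the intermediate filament family, rose by 1.09 (SE 0.0869, adjusted p = 2.98e-14). Bfsp2, known as a filament protein of the lens, fell by 0.69 on Day 1 (SE 0.244, adjusted p = 0.0184) and rose on Day 5 by 1.08 and 1.38 (SE 0.218 and 0.221, adjusted p = 8.69e-04 and 1.55e-05). Krt77 fell by 0.50 (SE 0.127, adjusted p = 0.00111) on Day 1. Peripherin (Prph) and desmin (Des), the nearest relatives of Vim and Gfap in the list, had log2 fold changes of 0.46 and 0.44 that did not pass (adjusted p = 0.0539 and 0.177), and these were picked out after their values were seen. On Day 5 Bfsp2 was the 1 gene of 16 that passed against either vehicle group, and on Day 42 none passed.

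A list of filament linkers and partners was chosen with earlier results of these data known, so its counts are a description only. Of its 13 genes, 12 were measured. On Day 1 4 rose and none fell (median log2 fold change 0.20), beside the same 11.5% and 8.05% of all genes. The small heat shock protein Hspb1, a filament chaperone, rose by 4.46 (SE 0.282, adjusted p = 1.15e-17) and the galectin Lgals3 by 3.59 (SE 0.225, adjusted p = 8.66e-18). The plakin Ppl (periplakin) rose by 2.14 (SE 0.250, adjusted p = 1.33e-09) and Plec (plectin), which crosslinks Vim and Gfap filaments, by 0.56 (SE 0.170, adjusted p = 0.00621). Cryab, the chaperone alpha-B-crystallin that binds Gfap, had a log2 fold change of 0.32 on Day 1 (adjusted p = 0.0590) and rose on Day 5 by 0.61 and 0.67 (SE 0.122 for both, adjusted p = 8.63e-04 and 1.24e-04). On Day 5 Cryab was the 1 linker or partner of 12 that passed, and on Day 42 none did.

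The genes most like each member were sought over 47 libraries among 13279 genes with a mean of at least 50 counts, by Pearson's r of log2(CPM + 0.5) and with no test, since treatment, day and preparation are shared by all genes. For Gfap they were Vim (r = 0.98), Serpina3n (0.97) and Cd109 (0.96), for Vim Serpina3n (0.98), Flnc (0.98) and Gfap (0.98), and for Nes Emp1 (0.98), S1pr3 (0.98) and S100a10 (0.98). Gfap and Vim were thus each among the nearest genes of the other, and neither was for Nes. Synm had Ccp110, Myt1l and Ank3 (each 0.90), far from the other glial members. Nefl had Osbpl1a, Ntng1 and Oxr1 (0.88 to 0.89), Nefm had Rab6b, Sh3gl2 and Desi1 (0.98 to 0.99), and Ina had R3hdm2, Hapln4 and Fnbp1 (0.98 to 0.99). The genes nearest to Nefh were Prkcd (0.93), which is itself on the thalamic list, Ptpn3 and Rab37 (each 0.91).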

How the data were processed

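Gene expression was measured by bulk mRNA sequencing of hypothalamus, with 1 library per mouse and 47 mice in 7 groups of treatment and day. The authors aligned reads with STAR and deposited whole-number counts per gene without normalization, and the counting program is not given in the sources used here. The labels name GRCh38 as the build, although the mice call for a mouse build, so coordinates and transcript lengths were taken from GENCODE M21 (GRCm38) by symbol, and promoters from RefSeq. A deposited table of sample labels was used to match columns to mice and for the preparation codes.

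The members and all gene lists were chosen with earlier results of these data known. The members were named in every comparison. From the lists of other filament genes and of linkers, genes were named that passed in any FGF1 comparison, up to 6 by adjusted p, and the 3 most similar genes were named for each member.

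From the counts, TMM factors were computed and a model with 1 mean for each group was fitted to all 14221 genes with edgeR 4.0.16 (R 4.3.3). Contrasts were tested by the quasi-likelihood F test with Benjamini-Hochberg adjustment over all genes, with thresholds of 0.05 for the adjusted p-value and 0.5 for the size of the log2 fold change. The SE was the fold change over the square root of F. Levels and within-library ratios were tested by two-sided exact permutation on log2(CPM + 0.5), and correlations by 100000 permutations within groups. Depth ranged widely, and the shallowest library was left out as an alternative. Alternatives were DESeq2 1.42.0, limma 3.58.1, other scalings, filters, pseudocounts and sets of libraries. The fit was first tested on simulated data with 200 changed genes.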

Additional observations from a re-analysis of the deposited data

Results flagged for a closer look

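Of 56 sets of values of a member in a group, 12 held a mouse set far apart from the others of its group, where chance alone flags about 1 in 20. For Gfap this was a vehicle-treated mouse of Day 42 at 376 CPM, and for Nes the shallowest library of Day 1 at 97.0 CPM. For the neuronal genes these were vehicle-treated mice of Day 1 with Nefl at 314, Nefm at 92.9 and Ina at 228 CPM, FGF1-treated mice of Day 5 with Nefm at 43.4 and Ina at 119 CPM, mice of the Day 5 vehicle group labelled non-diabetic with Nefl at 419, Nefm at 39.3 and Nefh at 179 CPM, and mice of the group labelled diabetic with Nefm at 53.7 and Nefh at 207 CPM. Of these 7 Day 5 values, all were the highest of the group, and they came from 3 mice, with thalamic sums of 761, 723 and 862 CPM that were each the highest of the group. The part of dissection in these values was not tested.

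The FGF1 effect differed between days by a test of the difference for 3 glial genes. From Day 1 to Day 5 it changed by -1.52 for Gfap, -2.44 for Vim and -3.32 for Nes on the log2 scale, from Day 5 to Day 42 by -1.41 for Gfap and -0.82 for Vim, and from Day 1 to Day 42 by -2.93 for Gfap, -3.26 for Vim and -3.75 for Nes. In the ratios of Vim and of Nes to Gfap, every FGF1-treated mouse lay above the vehicle mean on Day 1 and below it on Day 5. Against the non-diabetic and the diabetic vehicle group in turn, the difference from Day 1 to Day 5 was -0.93 and -0.90 for Vim over Gfap and -1.76 and -1.84 for Nes over Gfap, and this difference between days was not tested.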

How the results depend on the processing

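Of 1080 values from alternatives, 1032 kept their direction and their side of the threshold. The calls of Gfap, Vim and Nes on Day 1 and of Gfap and Vim on Day 5 held in every alternative run. The number of members called from Day 5 to Day 42 fell from 2 to 1 with limma (Vim, adjusted p = 0.0715) and was 1 to 2 when single mice were left out, as given beside the result. Directions that turned belonged to differences near 0 that passed in no setting, and the cause was not tested. Ina on Day 1 was -0.0234 with DESeq2 and with its size factors. Without the 2 deepest Day 5 FGF1 libraries, Synm on Day 5 against the non-diabetic group was -0.0366, the change of Ina from Day 1 to 5 was -0.00872 and that of Nefh from Day 5 to 42 was 0.0577. Vim between the Day 5 vehicle groups was -0.0017 among genes with at least 10 counts in every library. With limma, Nefh was 0.0115 from Day 1 to 5 and 0.0067 from Day 1 to 42, and with both Day 5 vehicle groups merged 0.0218 from Day 5 to 42. With single mice left out, Day 42 values ran from -0.23 to 0.20 for Gfap, from -0.0446 to 0.212 for Vim and from -0.0932 to 0.0306 for Ina, changes from Day 5 to 42 from -0.11 to 0.0563 for Nefl, from -0.23 to 0.0182 for Nefm and from -0.19 to 0.15 for Nefh, and changes from Day 1 to 42 from -0.25 to 0.0942 for Nefh, from -0.12 to 0.0069 for Ina and from -0.0057 to 0.16 for Nefl. The ratio of Nefh to Nefl on Day 1 ran from -0.0052 to 0.14 without single vehicle-treated mice, an alternative added after seeing the data. The ratio of Nes to Vim on Day 1 passed at 0.31 with a pseudocount of 0.1, and the ratio of Ina to Nefl at 0.28 without the shallowest library.

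No paired analysis was possible because the labels give the mice no number that links groups, and replicate numbers here only follow the order of deposition. The p-values rest on the spread between mice within groups, with 4 to 10 mice each. In the edgeR model this spread was pooled over the groups of all days. Its SEs and p-values therefore do not follow the spread of the compared groups alone. The exact permutation tests of levels and ratios used only the mice compared. Day 42, with 5 mice a group, had edgeR SEs of 0.0925 to 0.198 on the log2 scale for the members. For Nefh on Day 42, log2 levels had an SD of 0.555 with FGF1 and 0.571 with vehicle, beside the SE of 0.198. For Gfap on Day 42 the SD was 0.245 and 0.549, beside an SE of 0.172. The intervals of 2 SE may thus be too narrow for these. They may be too wide for Synm on Day 42 (SD 0.075 and 0.0836, SE 0.0925) and for Nefh on Day 1 (SD 0.114 and 0.0695, SE 0.186).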
